A study of Mus musculus with 30 samples.

Results

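The genes described here are the 4 opioid receptors, Oprm1 (mu), Oprd1 (delta), Oprk1 (kappa) and Oprl1 (nociceptin), and the opioid peptide precursors Penk and Pdyn. They were taken by symbol from the count tables, and all 6 were found among 22609 genes. RNA came from dorsal root ganglion (DRG), which holds the cell bodies of sensory neurons, and from hind paw of C57BL/6J mice aged 10 to 12 weeks. There were 30 libraries in 10 groups of 3: female and male DRG and paw after vehicle (Veh, phosphate-buffered saline) or prolactin (PRL, 1 µg) injected into the paw, and female DRG and paw labelled PRL_Sh. The protocol lists a single injection and daily injections for 12 days, and the labels do not say which group received which or what Sh stands for. The 24 Veh and PRL libraries were made from RNA depleted of rRNA (KAPA RiboErase), and the 6 PRL_Sh libraries from selected mRNA (TruSeq). The kit, the PRL_Sh label and any difference in schedule therefore cannot be told apart. The labels name 18 female and 12 male libraries, whereas the series text gives 18 males and 12 females; the labels were used. Nothing says that the 3 libraries of a group came from separate animals, so p-values measure the spread between libraries, which may be technical.

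The opioid receptors are seven-pass membrane receptors that couple to inhibitory G proteins. On sensory neurons they close voltage-gated calcium channels and lower cAMP, which reduces transmitter release and firing. Penk yields enkephalins, which act mainly on delta and mu receptors, and Pdyn yields dynorphins, which act mainly on kappa receptors. Oprl1 binds nociceptin, the product of Pnoc, and has little affinity for the other opioid peptides.

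The 4 receptor genes are close relatives, so the stretch in which they are most alike is shown to make clear what a read can distinguish. In 50 aligned coding bases with the most positions shared by all 4, 38 positions are identical, printed in capitals. The sequences are from the GENCODE M21 transcripts of GRCm38, and the positions are counted from the first base of the coding sequence. The stretch runs from 289 to 338 in Oprm1, 232 to 281 in Oprd1, 262 to 311 in Oprk1 and 229 to 278 in Oprl1.
Oprm1: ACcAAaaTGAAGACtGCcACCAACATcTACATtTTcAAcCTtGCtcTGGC
Oprd1: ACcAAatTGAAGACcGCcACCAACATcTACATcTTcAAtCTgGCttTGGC
Oprk1: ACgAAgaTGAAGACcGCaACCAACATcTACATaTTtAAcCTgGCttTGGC
Oprl1: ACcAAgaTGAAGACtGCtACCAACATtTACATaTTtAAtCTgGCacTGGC
Oprd1 differs from Oprm1 at 6 of these positions, and Oprk1 and Oprl1 at 8 each. Over the coding sequences, identity with Oprm1 was 64.4% for Oprd1, 64.1% for Oprk1 and 59.8% for Oprl1. The closest pair of 50-base coding stretches between any receptors, in Oprd1 and Oprk1, differed at 4 positions. None of the 30529 distinct stretches of 50 bases in the annotated transcripts of the 6 genes occurred in more than 1 of them, so a read of 50 nt without errors fits at most 1 of the 6. Other genes were not searched.

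The precursors carry repeated copies of the enkephalin sequence, and this is what relates Penk to Pdyn. A search of the coding sequences found 6 copies of Met-enkephalin and 1 of Leu-enkephalin in Penk and 3 of Leu-enkephalin in Pdyn. All 10 follow the codons of a pair of basic amino acids, the site at which prohormone convertases cut. Copies are shown with the enkephalin codons in capitals and the flanking codons in lower case. The first Met-enkephalin of Penk starts at coding position 298, its Leu-enkephalin at 691, and the 3 copies of Pdyn at 496, 604 and 661.
Penk Met: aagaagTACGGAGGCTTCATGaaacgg
Penk Leu: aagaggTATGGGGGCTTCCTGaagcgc
Pdyn Leu 1: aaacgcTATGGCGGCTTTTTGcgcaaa
Pdyn Leu 2: aaacgcTATGGGGGCTTCCTGcggcgc
Pdyn Leu 3: aagcgcTATGGTGGTTTCCTGcggcgt
The Leu-enkephalin codons of Penk and the second copy of Pdyn are the same 15 bases, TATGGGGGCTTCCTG, the longest run that the 2 coding sequences share.

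On GRCm38, used for annotation because the counts are on mm9, Oprm1 lies on chromosome 10 from 6758506 to 7038198 on the plus strand and spans 279.7 kb, with 31 annotated transcripts. Oprd1 lies on chromosome 4 from 132110726 to 132144486 (minus), Oprk1 on chromosome 1 from 5588466 to 5606131 (plus) and Oprl1 on chromosome 2 from 181715016 to 181720985 (plus). Penk lies on chromosome 4 from 4133531 to 4138819 (minus) and Pdyn on chromosome 2 from 129686565 to 129699844 (minus). Counts are over whole genes, so they do not separate transcripts, exons or untranslated regions. The minus-strand gene Ipcef1 overlaps Oprm1 and shares 96 exonic bases with it. The strand setting of the counting is not given in the sources used here, so reads of these 2 genes may not be fully separated. Ipcef1 averaged 3.6 CPM in rRNA-depleted DRG and 3.48 in paw, where Oprm1 was almost absent.

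Reads assigned to genes numbered 8.99 to 13.3 M (M, 1000000) per rRNA-depleted DRG library, 6.87 to 13.5 M per rRNA-depleted paw library and 21.8 to 26.5 M per PRL_Sh library. Levels are counts per M reads assigned to genes (CPM). Defining markers followed the labelled tissues: Scn10a, a sodium channel of nociceptors, was at 873 to 1275 CPM in every DRG library and at most 1.73 in any paw library. Krt10, a keratin of skin, was at 14181 CPM or more in paw and at most 40.7 in DRG. A list of 17 skeletal muscle genes took 0.011% to 2.8% of gene reads in DRG libraries and 0.273% to 14% in paw libraries, a spread within groups that the treatment labels do not give.

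In DRG, 3 receptors were well above the kappa receptor in CPM. Over the 12 rRNA-depleted DRG libraries Oprm1 ranged from 19 to 31.4 CPM with a median of 24.8. Oprd1 averaged 16.2 CPM, Oprl1 14.2, Penk 6.25 and Oprk1 3.34, and Pdyn had at most 6 reads in a library. Genes can be ordered only per length. Per kb of annotated exon, rRNA-depleted DRG held 4.02 ± 0.51 CPM of Oprd1 (SD, n = 12), 3.83 ± 1.57 of Penk, 3.78 ± 0.45 of Oprl1 and 3.08 ± 0.43 of Oprm1. Oprk1 was at 0.365 ± 0.084 and Pdyn at 0.046 ± 0.066. By this measure the first 4 overlap in their ranges, whereas Oprk1 lies below each of them in every library and Pdyn lies lower still. The order of the mu receptor, and how far the kappa receptor lies below the others, depend on the length used. Per kb of its principal transcript, 1.44 kb long, Oprm1 was at 17.2 ± 2.4 CPM, above the other 5 genes. On the same measure Oprk1, with 1.38 kb, was at 2.43 ± 0.56 CPM. Its range of 1.55 to 3.33 overlapped that of Penk, 2.29 to 8.16.

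Over the pooled rRNA-depleted DRG libraries, Penk varied more than the receptors. Its coefficient of variation over these 12 libraries was 41.2%, against 12.5% from counting alone. For Oprm1 the 2 values were 13.9% and 6.22%, for Oprd1 12.6% and 7.77%, for Oprl1 11.9% and 8.25%, and for Oprk1 23% and 17%. The receptors thus stayed within a narrow band, with the highest library 1.46 to 2.15 times the lowest, whereas the Penk libraries spanned a ratio of 3.56. These values pool 4 groups, whose Penk means ran from 4.02 to 8.61 CPM. Within female Veh DRG the SD was 0.716 on a mean of 4.02 CPM for Penk and 0.93 on 3.18 for Oprk1, so the order does not hold in every group.

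**Figure D1:**
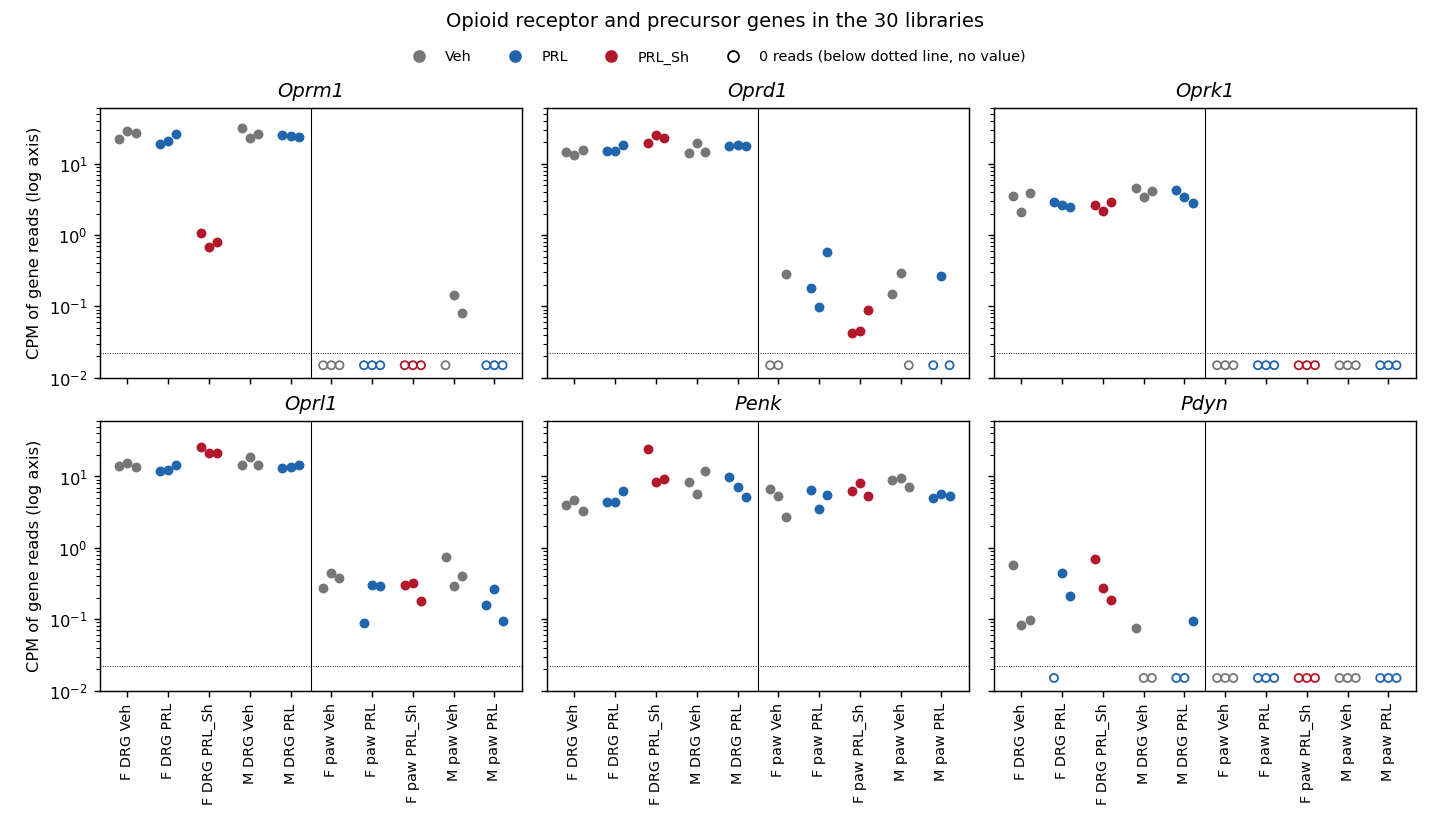
Level of each gene in the 30 libraries, in CPM (counts per M reads assigned to genes) on a log axis; each point is 1 library, F is female and M is male, and open points below the dotted line are libraries with 0 reads. The receptors and Pdyn sit in DRG, Penk sits at a similar height in both tissues, and the 3 red Oprm1 points in DRG are at 0.683 to 1.06 CPM.

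The receptors were transcripts of the ganglion. Oprm1 had no read in 10 of the 12 rRNA-depleted paw libraries and 1 read in each of the other two, both male Veh. Oprk1 had no read in any of the 15 paw libraries. The 132 M gene reads of the 12 rRNA-depleted paw libraries put the limit that a count of 0 allows at 0.0227 CPM, for counting error only. Oprd1 had 0 to 6 reads in a paw library and Oprl1 1 to 10. No DRG library overlapped any paw library for these 4 genes. The share of all genes without such overlap was not counted, and 85.4% of all genes tested differed between Veh DRG and Veh paw.

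The ratios between Veh DRG and Veh paw, from the summed reads of 6 libraries each, follow with exact intervals that cover counting error only. Oprm1 had 1727 reads against 2, a ratio of 879 (95% interval 243 to 7265). Oprd1 had 977 against 7, a ratio of 142 (68.7 to 354), and Oprl1 970 against 29, a ratio of 34.1 (23.6 to 51.1). Oprk1 had 234 against 0 and was at least 79.4-fold higher in DRG, with 3 reads over the paw group as the floor. Pdyn had 9 reads against 0, of which 6 came from female Veh DRG replicate 1. With the same floor it was 3.05-fold higher. Such bounds leave out the counting error of the DRG reads, which is large here. Without the filter, the edgeR test between the tissues gave Pdyn an adjusted p of 0.0819. In PRL_Sh the ratio was 377 for Oprd1 (147 to 1384) and 85.3 for Oprl1 (53.8 to 144), while Oprm1, with 62 reads against 0, was at least 19-fold higher. These genes entered the test between tissues through their DRG reads, so their passing it says nothing more. Of all genes tested, 42.3% were higher in Veh DRG and 85.4% differed in either direction. In bulk tissue, fewer cells of a type and less RNA per cell cannot be told apart.

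Penk was the exception. In Veh DRG it had 3.98, 4.75 and 3.32 CPM in the females and 8.33, 5.67 and 11.8 in the males. In Veh paw the female libraries had 6.66, 5.34 and 2.72 CPM and the male libraries 8.91, 9.47 and 7.06. The tissues overlapped, and the fitted log2 difference, DRG over paw, was -0.16 ± 0.21 (SE; adjusted p = 0.478, edgeR quasi-likelihood test with Benjamini-Hochberg adjustment, used throughout). Its 95% interval ran from -0.58 to 0.26. In PRL_Sh, Penk had 24.4, 8.33 and 9.09 CPM in DRG and 6.24, 8.21 and 5.38 in paw. DRG was higher there by 1.07 ± 0.42 (adjusted p = 0.0472), where 80.2% of all genes differed between the tissues. That call was lost, at an adjusted p of 0.0501 to 0.121, in 6 of 12 alternatives, among them the fits without DRG PRL_Sh replicate 1 (0.43) and without any single paw PRL_Sh library (0.93 to 1.25).

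**Figure D2:**
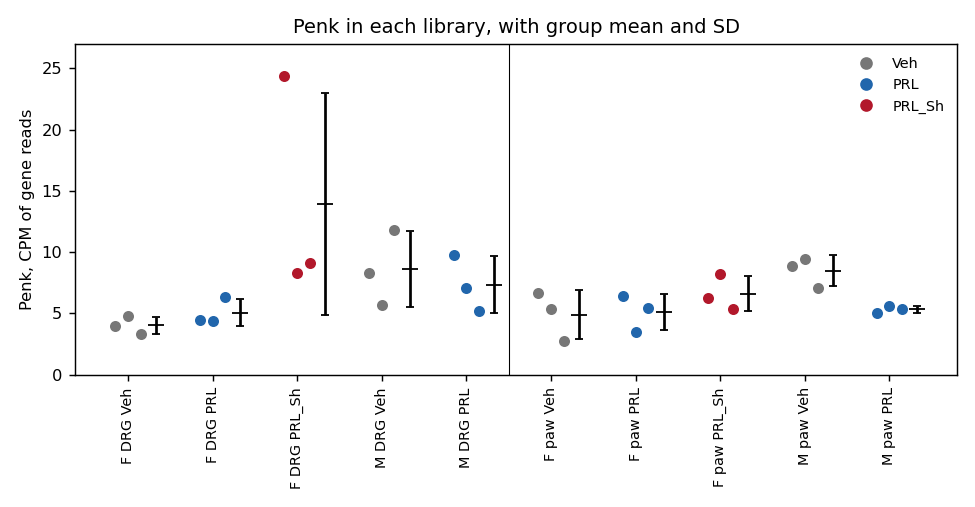
Penk in CPM (counts per M reads assigned to genes), on a linear axis; points are libraries, and the bar beside each group is its mean and SD (n = 3). DRG and paw are at a similar level, male Veh lies above female Veh in both tissues, and 1 DRG PRL_Sh library at 24.4 CPM stands apart.

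The other precursors gave little RNA. Pomc, the source of beta-endorphin, had group means of 0.198 to 0.692 CPM in DRG, and Pnoc, the source of nociceptin, of 0.025 to 0.578. The processing enzymes were present in DRG: Pcsk1 and Pcsk2, which cut these precursors in the secretory granule, averaged 44.6 and 193 CPM in female Veh DRG. In female Veh paw they averaged 0.366 and 0.521 CPM. Penk levels in Veh paw thus overlapped those in Veh DRG, while both convertases were under 1 CPM on average in female Veh paw. Other processing genes went the other way. Of 10 tested precursor and processing genes, 7 were higher and 2 lower in Veh DRG than in Veh paw, where 85.4% of all genes differed. Furin was among the lower, with a log2 difference, DRG over paw, of -2.24. Mme (neprilysin), which degrades enkephalins, averaged 130 CPM in female Veh DRG and 12.4 in female Veh paw, and Anpep (aminopeptidase N), another such enzyme, 18.6 and 80 CPM.

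None of the 5 opioid genes tested in DRG passed the test for a change with prolactin. The count was 0 of 5 in females, where 0.653% of all 14705 genes tested were called, and 0 of 5 in males, where 0.517% were called. Pdyn did not pass the filter on low counts. No unadjusted p of the 5 was under 0.05 in either sex, and DESeq2 called 0 as well.

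For the mu receptor, female DRG had 22.1, 28.5 and 26.9 CPM with Veh and 19, 20.6 and 26.3 with PRL. Male DRG had 31.4, 22.9 and 26 with Veh and 25.3, 24.4 and 23.4 with PRL. The groups overlapped in both sexes, and the change was -0.22 ± 0.14 in females (adjusted p = 0.551) and -0.15 ± 0.14 in males (adjusted p = 0.653).

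For the delta receptor the female libraries had 14.7, 13.4 and 15.4 CPM with Veh and 15.2, 15.1 and 18.1 with PRL. The male libraries had 14, 19.7 and 14.5 with Veh and 17.9, 18.4 and 17.6 with PRL. The estimates were alike in the sexes, 0.17 ± 0.13 and 0.16 ± 0.13, and neither passed the test (adjusted p = 0.623 and 0.592).

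The nociceptin receptor was the only member whose male DRG groups did not overlap. It had 14.6, 18.6 and 14.4 CPM with Veh and 13.2, 13.6 and 14.3 with PRL. The change of -0.21 ± 0.12 missed the threshold (adjusted p = 0.426), and 19.5% of genes with 30 or more reads were also without overlap in that comparison. In females Oprl1 was at 14, 15.5 and 13.4 CPM with Veh and 12.1, 12.2 and 14.5 with PRL, a change of -0.12 ± 0.12 (adjusted p = 0.703).

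Oprk1 and Penk were measured with wider intervals. Oprk1, on 23 to 61 reads a library, changed by -0.21 ± 0.26 in females and -0.25 ± 0.25 in males (adjusted p = 0.768 and 0.683). Penk had 4.44, 4.37 and 6.31 CPM in female PRL DRG and 9.79, 7.06 and 5.17 in male PRL DRG. Its change from the Veh values above was 0.34 ± 0.30 in females and -0.24 ± 0.27 in males (adjusted p = 0.677 and 0.722).

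Averaging the sexes narrowed the intervals without bringing a member past the threshold, while 3.6% of all genes passed it. The 95% interval of the average log2 change was -0.38 to 0.01 for Oprm1, -0.01 to 0.34 for Oprd1, -0.58 to 0.12 for Oprk1, -0.33 to -0.0039 for Oprl1 and -0.35 to 0.44 for Penk. The adjusted p-values were 0.295, 0.31, 0.488, 0.266 and 0.93. These intervals are narrower than the edgeR F test implies. The Oprl1 interval lay wholly on the negative side, yet the unadjusted p of Oprl1 in that F test was 0.0667. No difference between the sexes in the change with prolactin passed for the 5 (adjusted p of 0.993 or more), in a test that called 0.0% of all genes with edgeR, with 3.65% at an unadjusted p under 0.05.

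**Figure D3:**
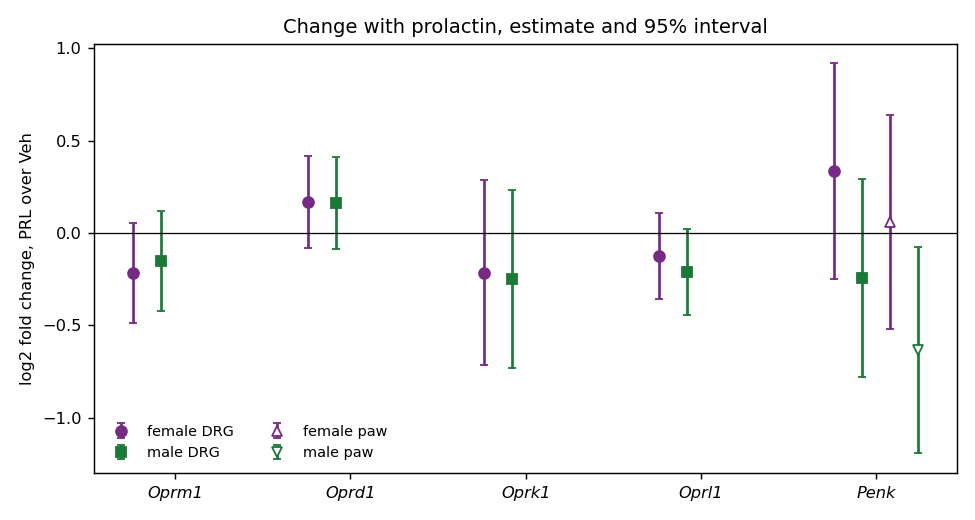
Fitted log2 fold change of PRL over Veh for the genes that passed the filter, with 95% intervals from 3 libraries a group; filled symbols are DRG and open symbols are paw. All DRG intervals include 0, and the male paw interval for Penk runs from -1.19 to -0.08.

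On average over the sexes, where 3.6% of all genes were called in DRG, none of 11 tested genes of the inhibitory G proteins or of 12 effectors was called. Of the genes that act on the peptides, 1 of 7 tested peptide-degrading enzymes rose, Mme by 0.51 ± 0.09 (adjusted p = 0.0106). Of 10 tested precursor and processing genes, 1 rose, Pcsk5, a proprotein convertase, by 0.42 ± 0.09 (adjusted p = 0.0209). Arrb1, which encodes beta-arrestin 1 and binds phosphorylated receptors, fell by 0.18 ± 0.04 on the log2 scale (adjusted p = 0.0216) and was 1 of 13 regulators called. Among 25 other receptors that couple to inhibitory G proteins, Adra2a, the alpha-2A adrenergic receptor, rose by 0.62 ± 0.11 (adjusted p = 0.0109) and S1pr1, a receptor for sphingosine 1-phosphate, fell by 0.35 ± 0.07 (adjusted p = 0.0172). In the same DRG libraries 4 of 7 fibroblast genes rose in each sex, and none of 17 sensory neuron genes was called in either. The summed fibroblast list was at 2939 to 4313 CPM in female Veh and 4945 to 6939 in female PRL. The part of this shift in the values of Mme, Pcsk5 and Adra2a was not tested.

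In paw only Penk passed the filter, and it was called in neither sex, against 7.55% of all genes in females and 22.4% in males. Female PRL paw had 6.44, 3.49 and 5.43 CPM, inside the range of Veh, with a log2 change of 0.06 ± 0.29 (adjusted p = 0.935). Male PRL paw had 5.01, 5.62 and 5.37 CPM, all below the 3 male Veh libraries. The highest of those, replicate 2 at 9.47 CPM, is the library with a low share of reads in genes. Leaving out single libraries gave log2 changes of -0.76 to -0.55. The change of -0.64 ± 0.28 had an unadjusted p of 0.0462 and an adjusted p of 0.132 with edgeR, and 0.106 with DESeq2. In a fit of the 6 male paw libraries alone it was -0.65 ± 0.18 (adjusted p = 0.0331). In that comparison 38.4% of genes with 30 or more reads were without overlap. In the male paw libraries 3 of 8 keratinocyte genes were called lower (Trp63 -0.72, Krt10 -0.61 and Krt5 -0.47) and 4 of 7 fibroblast genes higher. The summed keratinocyte list was at 41869 to 50037 CPM in male Veh and 25624 to 35162 in male PRL, and the fibroblast list at 9786 to 15724 and 19535 to 32002. The part of these shifts in the Penk value was not tested. The difference between the sexes in the Penk change was 0.70 ± 0.41 (adjusted p = 0.47). Of all genes, 0.00679% passed that test, and the paw average, -0.29 ± 0.20 for Penk (adjusted p = 0.342), called 24.9%. The receptors had 0 to 10 reads in these libraries, too few to compare. Oprl1 had 10, 2 and 5 reads in male Veh paw and 2, 3 and 1 in male PRL paw.

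Genes that regulate, transduce or process opioid signals were also tested in the PRL paw. Arrb2, which encodes beta-arrestin 2, went from 17.6 ± 0.8 to 40.4 ± 12.3 CPM in females and from 17.3 ± 5.5 to 34.9 ± 4.4 in males (SD, n = 3). Its log2 changes were 1.19 and 1.03. Rgs19, which speeds the shut-off of inhibitory G proteins, rose by 0.69 in females and 0.59 in males. In each sex 4 of 13 regulators rose and none fell, beside the 7.55% and 22.4% of all genes called in females and males. Ogfr, which encodes the opioid growth factor receptor and is not related to the membrane receptors, rose in males from 20.3 ± 1.2 to 38.3 ± 4.1 CPM (log2 change 0.94). Of 11 other receptors that couple to inhibitory G proteins, Cnr2, the cannabinoid receptor of immune cells, rose by 1.75 in females and 1.80 in males. In males S1pr1 and Adora1, an adenosine receptor, fell by 0.45 and 1.16. Of 10 tested genes of the inhibitory G proteins, 3 rose in females, and in males 2 rose (Gnb4 by 0.88 and Gng2 by 0.45) and Gnai1 fell by 0.63. Of 9 effectors none was called in females, and in males the adenylyl cyclases Adcy6 and Adcy5 changed by 0.33 and -0.86. The processing and degrading enzymes had no call in females, and in males Ctsl rose by 0.43, Pcsk6 fell by 0.63 and Dpp3, a peptidase, fell by 0.33. Of 11 tested leukocyte genes 8 rose in each sex, among them Ptprc by 1.47 and 1.72, and their summed level was 251 to 299 CPM in female Veh paw and 590 to 918 in female PRL paw. How far leukocyte RNA carries the rises in Arrb2, Rgs19 and Cnr2 was not tested.

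Penk was lower in the female than in the male Veh libraries in both tissues, with no overlap in either. The log2 difference, female over male, was -1.12 ± 0.29 in DRG and -0.87 ± 0.29 in paw. In DRG this was 2.17-fold lower in females, with an unadjusted p of 0.00191, rank 31 of 14705 genes, but an adjusted p of 0.704. In paw the adjusted p was 0.437, and leaving out single libraries gave differences of -1.15 to -0.58. Few genes passed either test, 0.0544% in DRG and 0.109% in paw, while 12.7% of genes with 30 or more reads had no overlap in DRG and 19.0% in paw. The 4 receptors differed by -0.39 to -0.08 in DRG, with adjusted p-values of 0.729 to 0.899. Pdyn had 6, 1 and 1 reads in female Veh DRG and 1, 0 and 0 in male, too few for the test.

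The PRL_Sh libraries differed from the PRL libraries in the receptor mix of female DRG. Oprm1 had 184, 231 and 246 reads in the PRL libraries and 26, 15 and 21 in the PRL_Sh libraries, although each of the latter held more gene reads. On the CPM scale these were 19, 20.6 and 26.3 against 1.06, 0.683 and 0.792. The log2 change was -4.91 ± 0.20, which is 30.1-fold lower (adjusted p = 9.64e-07), and it ran from -5.08 to -4.68 over 12 alternatives. Only 133 of 14985 genes had a lower value. Because 61.6% of all genes were called here, 29.3% higher and 32.3% lower, being called is itself no distinction.

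The other receptors did not follow Oprm1. Oprl1 rose from 12.1, 12.2 and 14.5 to 25.7, 21.6 and 21.3 CPM, a change of 0.59 ± 0.11 (adjusted p = 0.00199). Oprd1 went from 15.2, 15.1 and 18.1 to 19.7, 25.1 and 22.8 CPM, also without overlap. Its change of 0.26 ± 0.13 missed the threshold (adjusted p = 0.108), and it passed with scaling by library size (0.48, adjusted p = 0.00767) and without PRL_Sh replicate 1 (0.36, adjusted p = 0.0269). Oprk1, at 2.89, 2.68 and 2.46 against 2.66, 2.14 and 2.94 CPM, overlapped (-0.28 ± 0.21, adjusted p = 0.276). Oprm1, the receptor with most reads in each PRL library, thus had fewer than Oprd1, Oprl1 or Oprk1 in each PRL_Sh library. In that comparison 70.4% of genes with 30 or more reads had no overlap.

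Penk rose by 1.23 ± 0.42 in the same comparison (adjusted p = 0.0342), with DRG PRL_Sh replicate 1 at 24.4 CPM and the others at 8.33 and 9.09. Without that library the change was 0.58 (adjusted p = 0.0368). The call was lost without any single PRL library (1.14 to 1.43, adjusted p = 0.0542 to 0.115). In paw the change of Penk was 0.35 ± 0.26 (adjusted p = 0.282), where 58.5% of genes were called. Pdyn had 17, 6 and 5 reads in DRG PRL_Sh and 0, 5 and 2 in DRG PRL. PRL against Veh and PRL_Sh against PRL use the same PRL libraries.

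Other values differed between the PRL_Sh and PRL libraries. Reads outside annotated genes were 34.5% to 35.8% of all reads in rRNA-depleted DRG and 10.8% to 11.3% in DRG PRL_Sh. Genes of long genomic span were lower in PRL_Sh. The median log2 change was 0.31 for the 3571 genes under 10 kb, 0.05 for 6799 genes of 10 to 50 kb, -0.40 for 3503 genes of 50 to 200 kb and -0.67 for 924 genes of 200 kb or more. Oprm1 belongs to the longest class, in which 64.4% of genes were called lower and 11 of the 924 lay below it. Such deep falls were not confined to long genes. Under 10 kb, 77 of the 3571 genes lay below Oprm1. In the 2 middle classes 16 of the 6799 and 18 of the 3503 did. Oprl1 and Penk, with spans of 5.97 and 5.29 kb, belong to the shortest class, and Oprd1 (33.8 kb) and Oprk1 (17.7 kb) to the second. Across the 14797 genes with a span, which are not independent, Spearman's rho between span and change was -0.37. Ipcef1, the gene that overlaps Oprm1, changed by -0.69 (adjusted p = 0.116). The part of span, kit or treatment in the Oprm1 value was not tested.

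**Figure D4:**
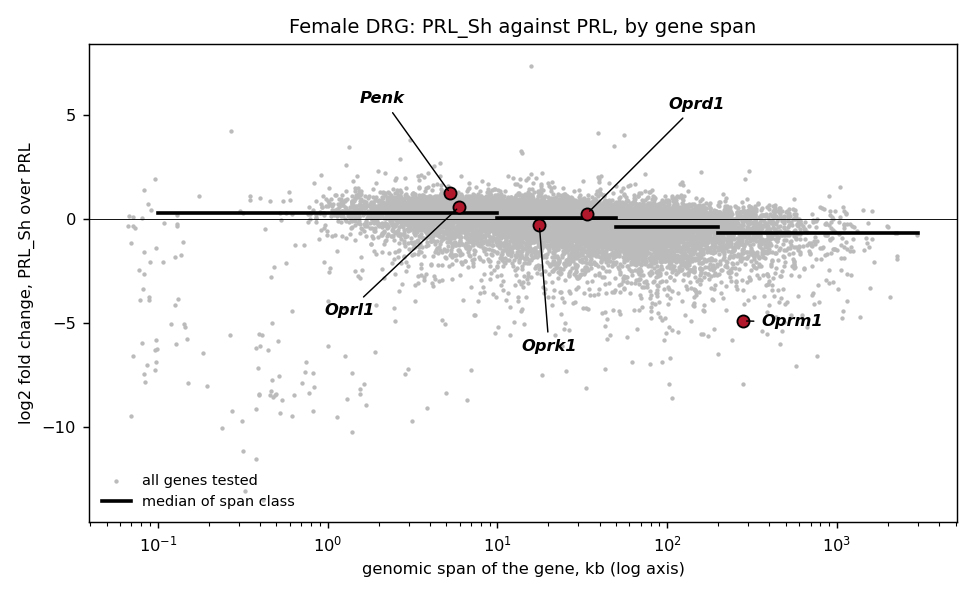
Log2 fold change of PRL_Sh over PRL in female DRG (vertical axis) against the genomic span of the gene in kb on GRCm38 (log axis); grey points are all tested genes with a span, black lines are class medians and red points are opioid genes. The medians fall from 0.31 to -0.67 with span, and Oprm1 lies at -4.91 while the other 4 lie between -0.28 and 1.23.

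Of the 17 sensory neuron genes, 12 were higher in PRL_Sh DRG and 3 lower, beside 29.3% and 32.3% of all genes. The median of the list was 0.52 against -0.0039 for all genes, and its summed level was 12193 to 13467 CPM against 7778 to 8977. The lower genes included Ntrk3 (-2.36, adjusted p = 6.38e-07), the call with the smallest p in the list. Scn10a was at 1019 to 1275 CPM in PRL_Sh DRG and at 873 to 1031 in the PRL DRG libraries of both sexes. All 7 fibroblast genes and 7 of 11 leukocyte genes were lower. Among 26 other receptors that couple to inhibitory G proteins, 7 were higher and 6 lower, with a median of -0.02. The falls included Htr1f (-2.75), a serotonin receptor, Galr1 (-2.13), a galanin receptor, and Chrm2 (-2.04), a muscarinic receptor, all smaller than that of Oprm1, while Sstr2, a somatostatin receptor, rose by 1.46. Of 8 peptide-degrading enzymes, 4 fell and 2 rose. Lnpep, a membrane aminopeptidase, fell by 6.69 and Mme by 2.31. Of 12 effectors, 6 fell, including the calcium channel subunits Cacna1a (-0.62) and Cacna1b (-0.68), through which the receptors inhibit transmitter release, and 3 rose. Of 11 genes of the inhibitory G proteins, 5 rose, including Gnai2 (0.49), and 1 fell, Gnai3 (-0.33).

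Whether PRL_Sh also differed from PRL in the contrast between DRG and paw could be estimated for few opioid genes, because paw held almost no receptor reads. Of the 5 tested, 1 passed, with 38.6% of all genes called: Oprd1, whose log2 ratio of DRG to paw was 2.35 ± 0.70 higher in PRL_Sh (adjusted p = 0.0207). It rests on 2, 1 and 6 reads in PRL paw and 1, 1 and 2 in PRL_Sh paw. Without PRL paw replicate 3 the value was 1.36 (adjusted p = 0.328), and without PRL_Sh paw replicate 1 it was 2.17 (adjusted p = 0.0512). For Oprm1 and Oprk1, at 0 reads in all 6 paw libraries, no error could be given. For Penk the difference was 0.82 ± 0.56 (adjusted p = 0.275).

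The genes with the most similar profiles were sought by the root mean square (RMS) difference of log2 CPM, centred on its mean, over the 10 groups, among 12743 genes. They are given as a description, since the points share tissues and the difference between PRL_Sh and the other libraries. Nearest to Oprm1 were Lrp1b (RMS 0.31, r = 0.996), Ankfn1 (0.50) and Ncam2 (0.51). They span 2058, 387 and 426 kb, and they fell in PRL_Sh DRG by 3.78, 5.55 and 3.70. Female PRL_Sh DRG is among the 10 groups of the profile. The change of any neighbour there therefore follows from the way neighbours were chosen. Lrp1b, for example, was at 31.2 ± 3.4 CPM in female PRL DRG, 2.68 ± 1.02 in PRL_Sh DRG and 0.06 ± 0.03 in PRL_Sh paw (SD, n = 3). Nearest to Oprd1 were Dbc1, Ak5 and Syt9 (RMS 0.19 to 0.26), to Oprk1 Cacna1a, Fam184a and Kcnc2 (0.20 to 0.21), and to Oprl1 Tspyl4, Ptprr and Pcyt1b (0.18 to 0.23). Long span is not particular to the neighbours of Oprm1. Among these, Ptprr, Cacna1a and Ak5 span 257, 252 and 206 kb, and they changed in PRL_Sh DRG by 0.11, -0.62 and 0.28. For Penk, Sept5 and Tctn2 were among the nearest (RMS 0.33 each), with r of 0.653 and 0.676. Gstt1, Mthfsd and Adamtsl5 were nearest to Pdyn (RMS 0.27 to 0.32), whose profile rests on few reads.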

How the data were processed

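Counts of reads per gene were used as deposited by the authors, 1 table per library with 22609 genes; lines that name no gene were left out of library sizes (no-feature reads were 9.45% to 35.8% of all reads). Per the labels' protocols, 500 ng of RNA and strand-marking kits gave single reads of 50 nt. Per the submitters' processing notes, bcl2fastq, TopHat2, HTSeq and mm9 were used; their versions, the annotation, the counting mode and the use of strand are not stated in those notes.

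Tests used edgeR 4.0.16 in R 4.3.3 (filterByExpr, TMM, quasi-likelihood F test, Benjamini-Hochberg threshold 0.05) over all genes. The 12 rRNA-depleted libraries of a tissue were fitted together for PRL against Veh and the sexes, the 24 together for DRG against paw in Veh, and only the groups compared for PRL_Sh. Errors are standard errors of the fit or SDs over libraries, and 95% intervals of log2 changes are 1.96 standard errors each way, which is narrower than the F test implies with few libraries. Alternatives were DESeq2 1.42.0, other scalings and filters, a muscle covariate, a replicate block and leaving out single libraries. Scripts were tested on simulated data. Sequences, spans and lengths come from GENCODE M21 on GRCm38; 98.7% of genes tested in PRL_Sh against PRL DRG had a span.

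The members and all gene lists were chosen with earlier results of these data known. Named genes were the 6 members, the called genes of each list with the smallest p (at most 4), and for each member the 3 nearest profiles (mean log2 CPM of at least 1, prior count 2), of which 1 is not reported here; Anpep, Pcsk1, Pcsk2, Pomc, Pnoc and Ipcef1 were named for their levels, after these were seen.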

Additional observations from a re-analysis of the deposited data

Results flagged for a closer look

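The log2 ratio of DRG to paw for Oprd1 was higher in PRL_Sh than in PRL by 2.35 ± 0.70 (edgeR interaction, adjusted p = 0.0207). It was singled out because the same contrast differed between the 2 kinds of library by the test of the difference. DRG held 485 and 1637 reads in PRL and PRL_Sh, and paw 9 and 4. In DRG alone Oprd1 changed by 0.26 ± 0.13. Without PRL paw replicate 3, which had 6 of the 9 reads, the difference was 1.36 (adjusted p = 0.328). Over the alternatives that kept all libraries the value was 2.34 to 2.68. The median of all genes in this comparison was -0.19 with TMM, 0.02 with RLE and 0.09 with library size.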

How the results depend on the processing

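In the 10 comparisons of PRL with Veh and of the sexes, no alternative called an opioid gene except the fit of the male paw libraries alone, which called 1 (Penk, -0.65). For PRL_Sh against PRL in DRG, 2 to 4 of 5 were called over the alternatives, and Oprm1 and Oprl1 were called in all 12. For DRG against paw in PRL_Sh, the filter at 1 CPM in 3 libraries left 3 called in place of 5, and no filter added Pdyn for 6. For the difference of DRG minus paw between PRL_Sh and PRL, leaving out single libraries gave 0 to 1 called. Scaling by library size moved the median of all genes in PRL_Sh against PRL DRG to 0.22.

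Counts over all genes varied more: 20 to 200 around 96 in female DRG, 25 to 303 around 76 in male DRG, 189 to 992 around 530 for the DRG average, 0 to 2 around 0 for its sex difference, 579 to 1642 around 1111 in female paw, 2017 to 3725 around 3301 in male paw, 0 to 159 around 1 for the paw sex difference and 5 to 107 around 16 for the sexes in Veh paw.

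Replicate numbers are shared by the groups. In DRG the correlation of same-numbered libraries ran from -0.38 to 0.37, over 0.1 in 4 of 18 pairs. Over the 24 rRNA-depleted libraries, within and between tissues, it ran from -0.49 to 0.39, over 0.1 in 14 of 84 pairs. With 3 libraries a group, these values cannot decide whether DRG and paw libraries of the same number share an animal. With the replicate block, Penk between tissues in PRL_Sh was 0.92 (adjusted p = 0.0655), and 4 opioid genes were called there in place of 5; no other count of opioid genes changed. Depth limits the receptors in paw and Pdyn everywhere.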
